A study of Arabidopsis thaliana with 31 samples.

Results

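The *dcl4* photolesion map is a list of 1260 genomic regions in which damaged DNA of UV-C-exposed *dcl4* plants was enriched, out of 7269 regions listed for 5 genotypes. The other lists are those of WT, the photolyase double mutant *uvr3 phrI*, the *ddb2* mutant and the hypomorphic *ago1* mutant, all in the Col 0 background. Every region of the *dcl4* list was taken, with its coordinates on TAIR10 and its fold enrichment. The *dcl4* plants carry the dcl4-2 allele, a T-DNA insertion of the line GABI_160G05 in the Col 0 background. Plants received 3000 J/m2 of UV-C and leaves were harvested without delay (time point 0). The plants were 18 days old by the sample labels and somewhat older by the study's methods, and leaves of 2 biological replicates were pooled. The sonicated and denatured DNA was immunoprecipitated with an antibody against cyclobutane pyrimidine dimers (CPD) and, separately, with one against 6,4 photoproducts (6,4 PP). There was 1 library per antibody, and the list holds the regions of both without naming the antibody. The fold enrichment of a region is the ratio of immunoprecipitated over input DNA, and the input came from WT (Col 0) plants, also for *dcl4*. The WT list, with 3585 regions, was made with the same dose, antibodies and input. No comparison therefore has a replicate check, and no test was made. The 95% intervals given here take in counting error only and are exact Clopper-Pearson intervals for shares, exact Poisson intervals for densities and order-statistic intervals for medians. The libraries of the genotypes differed in mapped reads, and reads per region are not part of the lists. The number of regions was therefore not compared between genotypes, and WT serves only for the make-up of its list.

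UV-C light fuses neighbouring pyrimidines of a DNA strand, which yields CPDs and 6,4 PPs at TT, TC, CT and CC steps. Plants reverse these lesions with light-dependent photolyases or excise them by nucleotide excision repair, in which Global Genome Repair (GGR) scans DNA that is not transcribed. DCL4 is a Dicer-like endonuclease that cuts double-stranded RNA into 21-nt small RNAs, and it acts in the small RNA-mediated branch of GGR that guides the damage-binding protein DDB2 with AGO1. Because the leaves were taken at time point 0, the map describes where lesions were recovered right after exposure. An immunoprecipitation list gives no check of the mutated gene. No region of either list lay within 1 kb of *DCL4* (chr5:6859218-6869307).

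The *dcl4* regions were between 77 and 1703 bp long (median 180.5 bp) and covered 0.209% of the genome. Their fold enrichment ranged from 2.82 to 23.5, with a median of 4.91 (4.84 to 5.004) and quartiles of 4.30 and 5.79. In WT the median was 4.59 (4.55 to 4.66) and the highest value 14.8. A fold enrichment of at least 10 was listed for 30 *dcl4* regions (2.38%) and 25 WT regions (0.697%). The most frequent lengths were 77 bp with 208 regions and 236 bp with 172 regions. In all, 669 regions (53.1%) were shorter than 236 bp. In 106 pairs of neighbours the regions overlapped. Only regions next to each other in the list were compared, so further overlaps within a long region are not among these pairs. Regions of 1 peak call do not overlap, so such a pair combines the calls of both antibodies. None of the 106 pairs joined 2 regions shorter than 236 bp. Merging overlaps left 1143 loci.

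The sequences at the most enriched loci were simple repeats. Among the 10 *dcl4* regions with the highest fold enrichment, 5 held a CT tract, 3 a telomere-type repeat and 2 a CA tract, and these 10 regions came from 6 loci. The highest value of the list, 23.5, belonged to a region inside the element AT1TE50365 of the family ATREP18, at chr1:15297952-15298092. Its TAIR10 sequence (plus strand, RefSeq) is printed with the tandem copies of the 7-base unit AAACCCT, the repeat of plant telomeres, in capitals. The first of these tracts begins before the region and is cut by its start.
AT1TE50365, chr1:15297952-15298092: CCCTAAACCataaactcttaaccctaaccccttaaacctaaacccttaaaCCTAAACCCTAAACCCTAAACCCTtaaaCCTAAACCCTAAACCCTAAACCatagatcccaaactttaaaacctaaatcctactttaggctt

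The next sequences are those of the most enriched dinucleotide tracts, with perfect CT or CA runs of at least 20 bases in capitals. The first lies in intergenic sequence 14856 bp from the nearest protein-coding gene, AT2G12550. The second lies in AT4TE19110, an element of the family ATDNAI27T9A, and is given on the minus strand. The last lies in an intron of AT3G23460, annotated as a methyltransferase superfamily gene.
Intergenic, chr2:5099958-5100066: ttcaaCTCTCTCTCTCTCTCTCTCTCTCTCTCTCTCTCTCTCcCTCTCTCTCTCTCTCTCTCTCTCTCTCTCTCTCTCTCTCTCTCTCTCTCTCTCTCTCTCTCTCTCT
AT4TE19110, chr4:4547916-4548015: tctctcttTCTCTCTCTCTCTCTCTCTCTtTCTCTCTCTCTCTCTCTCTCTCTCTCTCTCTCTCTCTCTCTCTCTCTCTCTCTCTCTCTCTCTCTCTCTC
AT3G23460, chr3:8414075-8414185: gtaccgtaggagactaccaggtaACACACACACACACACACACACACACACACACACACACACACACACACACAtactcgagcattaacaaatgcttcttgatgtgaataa

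A run of CT is made of pyrimidines on 1 strand, and the first tract region reached 49.1% di-pyrimidine steps over both strands, close to the 50% that a pure CT run gives. A CA run holds no di-pyrimidine step on either strand. The printed region in AT3G23460 had 12.7% di-pyrimidine steps, against 27.3% in the genome, and a fold enrichment of 14.4. The longer region around it, which takes in flanking sequence, had 22.9% and a fold enrichment of 18.0.

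Each of the 3 loci was covered by a short and a long region. At chr2:5099801-5100228 the long region had a fold enrichment of 16.2 and the nested short one 17.6. At AT4TE19110 the values were 14.2 (long, chr4:4547760-4548166) and 17.4 (short). In AT3G23460 they were 18.0 (long, chr3:8413914-8414351) and 14.4 (short). The short region was thus the higher one at both CT tracts and the lower one at the CA tract. At AT1TE50365 the long region (chr1:15297818-15298234) had 13.5 against 23.5 for the short one. Over the 106 overlapping pairs of neighbours the longer region had the higher value in 64 (60.4%, 50.4 to 69.7).

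The same loci were in the lists of the other genotypes, which share the WT input with *dcl4*, so their values are given side by side only. At AT1TE50365 the highest overlapping region had a fold enrichment of 12.5 in WT, 10.6 in *uvr3 phrI*, 15.3 in *ddb2* and 13.8 in *ago1*, against 23.5 in *dcl4*. At the intergenic CT tract the values were 10.6, 25.7, 20.9 and 21.2, against 17.6 in *dcl4*. At AT4TE19110 they were 14.3, 23.9, 22.2 and 18.6, against 17.4. At AT3G23460 they were 14.4, 18.8, 21.7 and 20.6, against 18.0 for the higher *dcl4* region. AT1TE50365 was the only one of these 4 loci at which *dcl4* had the highest value of the 5 lists. That value belonged to the short region alone. The long *dcl4* region at AT1TE50365 had 13.5, below the values of *ddb2* and *ago1*.

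The regions were sorted by sequence type to describe how far such repeats make up the map. A region counted as satellite when its bases were at least 60% identical to the bases 178 bp away (within 2 bp), the most frequent distance among the *dcl4* regions that matched a neighbouring copy (85 regions). That distance is the length of the tandem repeat of Arabidopsis centromeres. Telomere-type regions held at least 14 bases (2 copies) of AAACCCT or its complement, and tract regions a perfect run of CT or CA on either strand, or of any other unit of 1 to 7 bases, of at least 20 bases. A region that met several definitions was given the first in this order. These definitions were chosen after the values of the regions had been seen. The same definitions were applied to 200-bp tiles of the genome, whose length lies near the median of the list.

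Satellite made up 96 of the 1260 regions (7.62%, 6.21 to 9.22), against 2.32% (1.85 to 2.86) of the WT list and 0.318% of the genome tiles. Telomere-type sequence made up 73 regions (5.79%, 4.57 to 7.23), against 2.51% (2.02 to 3.08) in WT and 0.139% of the tiles. CT tracts were in 29 regions (2.30%, 1.55 to 3.29), against 1.09% (0.775 to 1.48) in WT and 0.0810% of tiles. CA tracts were in 16 regions (1.27%, 0.728 to 2.05), against 0.614% (0.385 to 0.928) and 0.0140%. The intervals of *dcl4* and WT did not overlap for satellite, telomere-type and CT-tract regions and overlapped for CA tracts. They treat regions as independent, although satellite regions lay close together, with up to 26 in 1 bin of 100 kb. The satellite distance and the 7-base unit were also those most frequent in the *dcl4* list. The intervals therefore do not measure a difference between the genotypes. Overlapping regions are counted one by one in these shares. After merging them, which was added after the data had been seen, CT tracts were in 1.75% (1.07 to 2.69) of the *dcl4* loci and 1.03% (0.725 to 1.43) of the WT loci, with overlapping intervals. Satellite made up 5.60% (4.34 to 7.09) against 2.18% (1.72 to 2.73) and telomere-type sequence 4.81% (3.65 to 6.22) against 1.98% (1.55 to 2.50) of the loci. The lists of the other mutants also held such sequence. Satellite made up 6.01% of the *uvr3 phrI*, 6.09% of the *ddb2* and 4.63% of the *ago1* regions, telomere-type sequence 6.31%, 3.95% and 10.4%, and CT tracts 2.30%, 2.92% and 6.95%. Other tandem runs were in 62 regions (4.92%) against 4.49% in WT. The remaining 984 regions (78.1%) held no such sequence, against 3190 (89.0%) in WT. As counts, the WT list held 83 satellite, 90 telomere-type, 39 CT-tract and 22 CA-tract regions. The shares of 1 list depend on each other, so a smaller share without such sequence raises the others. They describe the make-up of each list, and whether these repeats were hit more often in *dcl4* was not tested.

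The types differed in fold enrichment. The median was 7.92 (5.75 to 11.4) for CT tracts, 6.89 (5.38 to 12.6) for CA tracts, 6.13 (5.40 to 6.88) for telomere-type regions and 4.83 (4.79 to 4.91) for regions without such sequence. Satellite regions had the lowest median, 4.54 (4.30 to 4.87), and a highest value of 8.94. Among the 100 regions with the highest values 24 were telomere-type, 17 held a CT tract, 8 a CA tract and 4 satellite, and 41 held no such sequence. The most enriched of these 41 had a value of 12.9, in AT3TE66230, another ATREP18 element (chr3:16355230-16355450). Its sequence, printed without capitals because it holds no 2 perfect adjacent copies of the unit, shows single and altered copies of the telomere repeat.
AT3TE66230, chr3:16355230-16355450: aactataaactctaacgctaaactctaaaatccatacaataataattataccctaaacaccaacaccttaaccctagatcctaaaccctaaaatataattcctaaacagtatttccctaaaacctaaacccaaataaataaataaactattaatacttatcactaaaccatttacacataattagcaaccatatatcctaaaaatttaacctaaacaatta

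**Figure D1:**
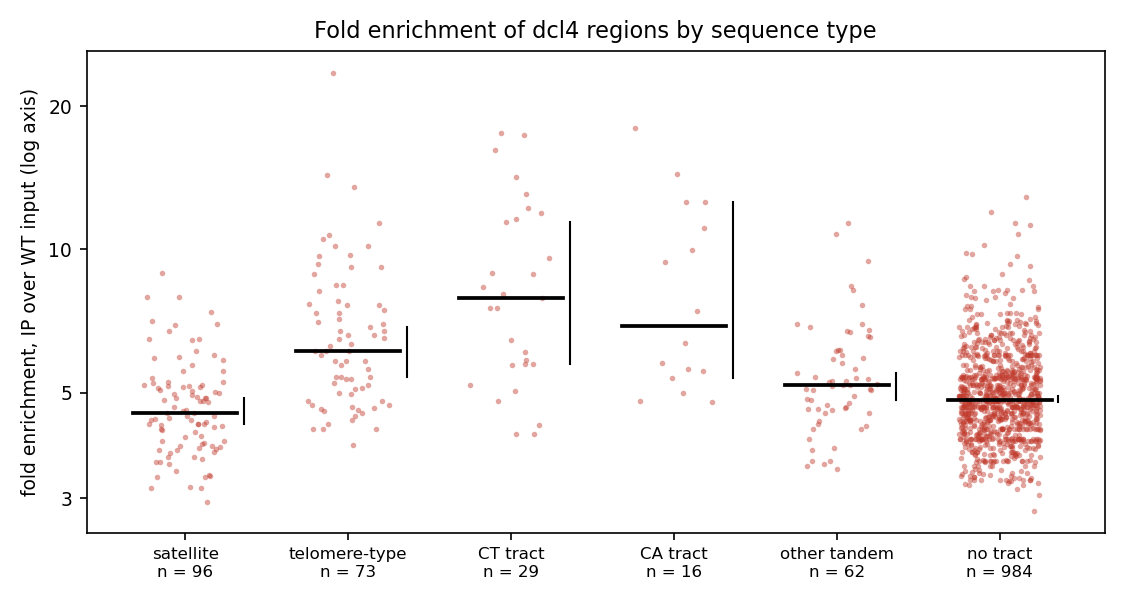
Fold enrichment (immunoprecipitated over WT input DNA, log axis) of each of the 1260 *dcl4* regions by sequence type, with the median as a horizontal line and its 95% interval as a vertical line. The medians of CT tract (7.92), CA tract (6.89) and telomere-type regions (6.13) lie above that of regions with no tract (4.83), and satellite lies lowest (4.54).

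For CT, CA and A runs, longer tracts were more often in the list, while AT and telomere-type tracts showed no such steady order. Of the CT tracts of the genome, 5 of 294 with 20 to 29 bases overlapped a *dcl4* region (1.70%, 0.554 to 3.92), as did 5 of 90 with 30 to 49 bases (5.56%, 1.83 to 12.5) and 17 of 101 with at least 50 bases (16.8%, 10.1 to 25.6). In WT the shares were 5.78%, 8.89% and 18.8%. Of the CA tracts, 4 of 80 with 20 to 29 bases (5%, 1.38 to 12.3) and 7 of 12 with 30 to 49 bases (58.3%, 27.7 to 84.8) overlapped a *dcl4* region, and in WT 11.3% and 75% did. The single CA tract of at least 50 bases is the one in AT3G23460. AT tracts, which hold no di-pyrimidine step either, were rarely in the list, with 4 of 1241 (0.322%, 0.0879 to 0.823) at 20 to 29 bases 1 of 645 (0.155%) at 30 to 49 bases and 0 of 76 (up to 4.74%) above. Of the telomere-type tracts, 125 of 1200 with 14 to 29 bases (10.4%, 8.75 to 12.3), 8 of 84 with 30 to 49 bases (9.52%, 4.202 to 17.9) and 4 of 9 longer ones were in the list. A run of A is a run of T on the other strand, and 16 of 1250 such runs of 20 to 29 bases (1.28%, 0.733 to 2.07) and 7 of 130 of 30 to 49 bases (5.38%, 2.19 to 10.8) were in the list. Reads were kept only when they mapped to 1 place, so a tract that is not unique together with its flanks could not be scored.

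Among the 5 genic regions with the highest values, 4 were CA-tract regions. Besides the pair in AT3G23460 these were *CRN* (AT5G13290, chr5:4254581-4255011), which codes for the receptor-like kinase CORYNE of the stem cell pathway, with a value of 12.6 on the side of the 5' UTR, and AT5G47540, a Mo25 family gene, with 12.6 on the side of the 3' UTR (chr5:19282997-19283184). The last of the 5 was the phosphatidylinositol 4-kinase gene AT5G09350, with 12.0 in coding sequence (chr5:2903483-2903632) and no tract. Its value was 10.5 in WT and 5.20 in *ddb2*, and the *uvr3 phrI* and *ago1* lists hold no region there. The 5 highest intergenic regions were 3 CT-tract loci, at chr2:5099801-5100228 (2 regions), at chr4:659455-659543 (13.1, 321 bp upstream of the NAC factor gene AT4G01520) and at chr3:11895202-11895622 (2 regions, 11.9 and 11.4). All 5 of the highest TE regions lay in AT1TE50365, AT4TE19110 and AT1TE52780, another ATREP18 element, where a region of 660 bp had a value of 14.3. The highest values of chromosomes 1 to 5 were 23.5, 18.0 on chromosome 3, 17.6 on chromosome 2, 17.4 on chromosome 4 and 12.6 on chromosome 5, and each was at a telomere-type repeat or a tract.

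The regions were spread over the 5 chromosomes, with 325 on chromosome 1, 194 on chromosome 2, 231 on chromosome 3, 208 on chromosome 4 and 302 on chromosome 5. The density was similar on each, from 9.85 per Mb (8.62 to 11.2) on chromosome 3 to 11.2 per Mb (9.97 to 12.5) on chromosome 5, and all intervals overlapped. Within the chromosomes the density was uneven. The pericentromere, taken as the gene-poor run of 100-kb bins around the centromere, held 390 regions (31.0%, 28.4 to 33.6) on 18.6% of the genome. In WT its share was 20.7% (19.4 to 22.03). In the other mutants 332 of 999 (*uvr3 phrI*), 309 of 1166 (*ddb2*) and 97 of 259 regions (*ago1*) lay there. The *dcl4* density was 17.6 per Mb (15.9 to 19.4) in the pericentromere and 8.97 per Mb (8.39 to 9.59) on the arms, a ratio of 1.958, against 1.14 in WT. By chromosome the ratio was 2.98 on chromosome 1, 1.81 on chromosome 2, 1.32 on chromosome 3, 2.17 on chromosome 4 and 1.86 on chromosome 5. On chromosome 3 alone the intervals of the pericentromere (9.32 to 15.6) and the arms (7.87 to 10.7) overlapped. Without satellite and telomere-type regions the share of the pericentromere was 20.5% (18.2 to 23.1) in *dcl4* and 16.9% (15.7 to 18.2) in WT.

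**Figure D2:**
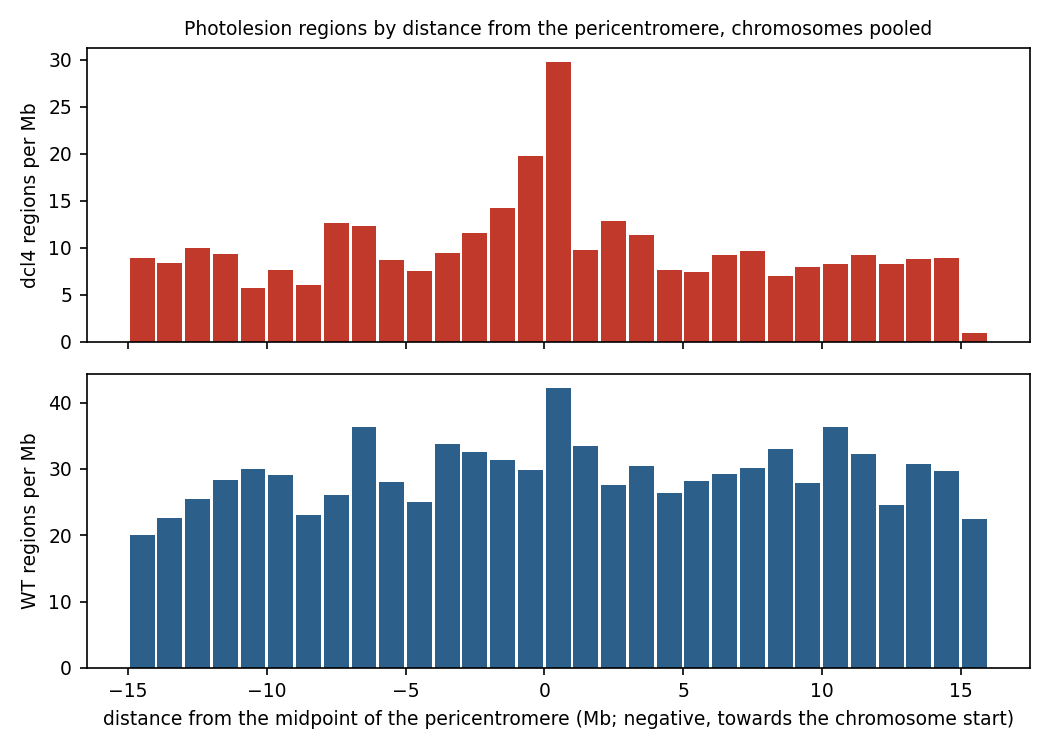
Number of regions per Mb against the distance from the midpoint of the pericentromere (Mb, chromosomes pooled, 1-Mb bins), for *dcl4* (top) and WT (bottom), each on its own scale. The *dcl4* bars are highest in the bins next to the midpoint (19.8 and 29.8 per Mb), while the WT bars are more even.

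Most regions were scattered, and a small share lay in a few dense bins. Of the 1193 bins of 100 kb, 693 held a *dcl4* region, with a median of 1, and 8 held at least 10. These 8 bins, all pericentromeric, held 142 regions (11.3% of the list), of which 73 were satellite and 46 telomere-type. In WT the same bins held 123 regions, which is 3.43% of its longer list. The bins were picked by their *dcl4* count, so a larger share of the *dcl4* list was set in advance. The densest, on chromosome 5 at 11.7 Mb, had 28 regions in 17 loci, with 26 satellite regions and values from 3.36 to 8.94. The bin on chromosome 4 at 3.9 Mb had 23 regions, all satellite, and that on chromosome 2 at 3.6 Mb had 20, of which 19 were satellite. On chromosome 1 the bin at 15.1 Mb had 21 regions, of which 18 were telomere-type and 20 lay in TEs, and its median of 5.91 was above the 4.47 to 4.55 of the 3 satellite bins.

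An example of the satellite is the region at chr3:13590232-13590422, with a value of 5.18. It is shown with the same stretch of the neighbouring copy, 178 bp away, and the 6 bases that differ between them are in capitals.
Region, chr3:13590232-13590422: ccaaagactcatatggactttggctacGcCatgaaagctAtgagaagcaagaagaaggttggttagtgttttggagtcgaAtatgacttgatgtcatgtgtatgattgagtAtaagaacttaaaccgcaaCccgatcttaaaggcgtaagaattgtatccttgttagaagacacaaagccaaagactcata
Neighbouring copy, chr3:13590054-13590244: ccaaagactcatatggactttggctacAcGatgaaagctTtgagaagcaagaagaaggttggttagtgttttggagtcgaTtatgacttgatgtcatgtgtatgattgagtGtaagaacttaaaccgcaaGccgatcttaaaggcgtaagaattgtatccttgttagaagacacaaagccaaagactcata

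The copies are 96.9% identical, and reads were placed only where such differences made them unique. The TAIR10 assembly holds only a part of the centromere arrays, so the map shows the copies at their assembled edges.

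Clusters were counted after merging overlapping regions. With a gap of at most 1 kb between neighbours, 140 of the 1143 loci (12.2%, 10.4 to 14.3) fell into 54 clusters, and in WT 11.8% (10.7 to 12.9) of loci were clustered. With a gap of at most 5 kb the shares were 21.4% (19.1 to 23.9) in *dcl4* and 32.2% (30.6 to 33.8) in WT, whose list holds more loci. The 5 clusters with the most regions were made up of satellite but for 1 region, on chromosome 5 (12 regions in chr5:11730286-11736048 and 7 in chr5:11725923-11729064), chromosome 2 (12 regions in chr2:3619450-3627687), chromosome 4 (11 regions in chr4:3950832-3955520) and chromosome 3 (7 regions in chr3:13588806-13592584). The cluster on chromosome 2 lies over AT2G08986, a gene annotated as an uncharacterized protein, with 11 regions. Of the 2 next clusters, with 6 regions each, one lay in AT1G40104 and the other in an ATREP18 array (chr1:15099888-15102239), with values from 4.59 to 10.2. A cluster of another kind, with 5 regions and no repeat of the defined types, covered AT1G76780 on the arm of chromosome 1 (chr1:28817009-28821834). AT1G76780 codes for a protein annotated with an HSP20-like domain, is partly annotated as a VANDAL17 element, and had values of 4.79, 5.04, 6.23, 5.97 and 6.45 along its coding sequence. The overlapping WT regions had values of 6.84 to 8.93. The bin at 12.9 Mb of chromosome 1 also stood out, with 13 regions of which 9 lay in intergenic sequence without such repeats, with a highest value of 11.3 at chr1:12970970-12971491.

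By class, 302 regions (24.0%, 21.6 to 26.4) lay in TEs, 499 (39.6%, 36.9 to 42.4) in protein-coding genes (PCG) and 459 (36.4%, 33.8 to 39.2) in intergenic sequence. In the genome the classes take 20.6%, 49.3% and 30.1% of the bases, and in the WT list 17.4% (16.1 to 18.6), 57.7% (56.0 to 59.3) and 24.99% (23.6 to 26.4) of the regions. PCGs thus had a smaller share in *dcl4* than in the genome and in WT, and TEs and intergenic sequence a larger one. The share moved with length. PCGs took 33.9% (30.3 to 37.7) of the *dcl4* regions shorter than 236 bp and 46.0% (41.9 to 50.1) of the longer ones. WT has no region shorter than 192 bp. In *uvr3 phrI*, *ddb2* and *ago1* PCGs took 33.2%, 48.6% and 35.5% and TEs 33.2%, 22.8% and 35.5% of the regions. Without satellite and telomere-type regions the share of TEs was 20.99% (18.6 to 23.5) in *dcl4*, an interval that takes in the share of the genome, and 15.8% (14.6 to 17.1) in WT. Within the zones, the PCG shares differed on the arms, with 51.8% (48.5 to 55.2) of the 870 arm regions in *dcl4* against 69.0% (67.2 to 70.7) in WT and 58.0% of the bases. In the pericentromere PCGs took 12.3% (9.22 to 15.99) in *dcl4* and 14.3% (11.9 to 17.0) in WT. This gene-poor zone held 31.0% of the *dcl4* list and 20.7% of the WT list. Its larger part in *dcl4* also lowers the PCG share of the whole list. Intergenic sequence took 36.2% (31.4 to 41.1) of the pericentromeric *dcl4* regions on 23.7% of the bases there, and TEs 51.5% (46.5 to 56.6) on 64.9%. The medians of fold enrichment were close, with 5.18 (5.03 to 5.38) for TEs, 4.83 (4.78 to 4.91) for PCGs and 4.86 (4.75 to 5.004) for intergenic regions. Without tracts and satellite the median of TE regions was 4.88.

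**Figure D3:**
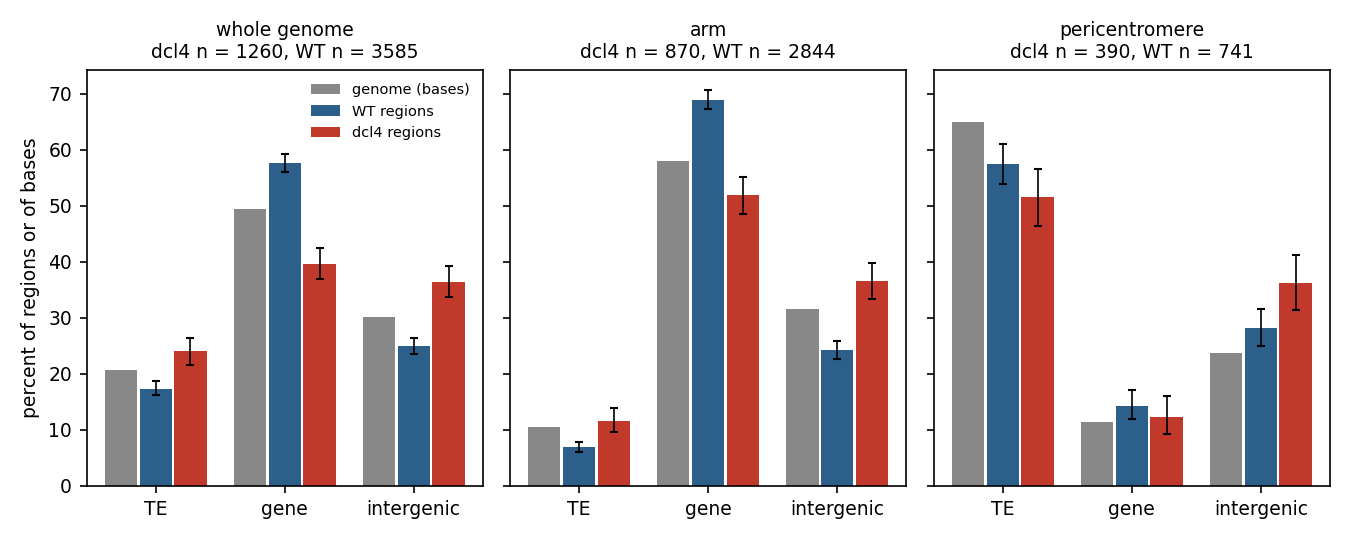
Percent of genome bases (grey), WT regions (blue) and *dcl4* regions (red) in TEs, protein-coding genes and intergenic sequence, for the whole genome, the arms and the pericentromere, with 95% intervals. The *dcl4* bars for genes lie below the WT bars in the whole genome (39.6% against 57.7%) and on the arms (51.8% against 69.0%).

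Within genes both UTR sides had a larger share of the regions than of the bases. By its midpoint, 103 of the 497 regions with a gene part (20.7%, 17.2 to 24.6) lay on the side of the 5' UTR, introns of the UTR included, where 6.77% of the gene bases lie. A further 79 (15.9%, 12.8 to 19.4) lay on the side of the 3' UTR, with 7.96% of the bases. Coding sequence had 159 (31.99%, 27.9 to 36.3) on 56.3% of the bases and introns 156 (31.4%, 27.3 to 35.7) on 29.02%. In WT the share of the 5' UTR side was the same within the intervals (20.3%, 18.6 to 22.1), that of coding sequence larger (43.9%, 41.7 to 46.0) and that of the 3' UTR side smaller (9.13%, 7.92 to 10.5). These shares were not split by region length, which differs between the lists. Genes were also divided into 5 equal parts from start to end, each with 20% of the length. The part nearest the start held 181 regions (36.4%, 32.2 to 40.8) and the next 101 (20.3%, 16.9 to 24.1). The middle part held 61 (12.3%), the one after it 46 (9.26%) and the last part 108 (21.7%, 18.2 to 25.6). The interval of the last part takes in 20%. The last part held 15.9% (14.4 to 17.6) in WT. The medians of fold enrichment of the 4 gene parts lay between 4.80 and 4.96. Of the 459 intergenic regions, 131 (28.5%) lay within 1 kb upstream of a gene, 97 (21.1%) within 1 kb downstream and 90 (19.6%) over 10 kb from any gene. In WT these shares were 40.0%, 21.2% and 10.2%. The share of intergenic bases at these distances was not computed.

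**Figure D4:**
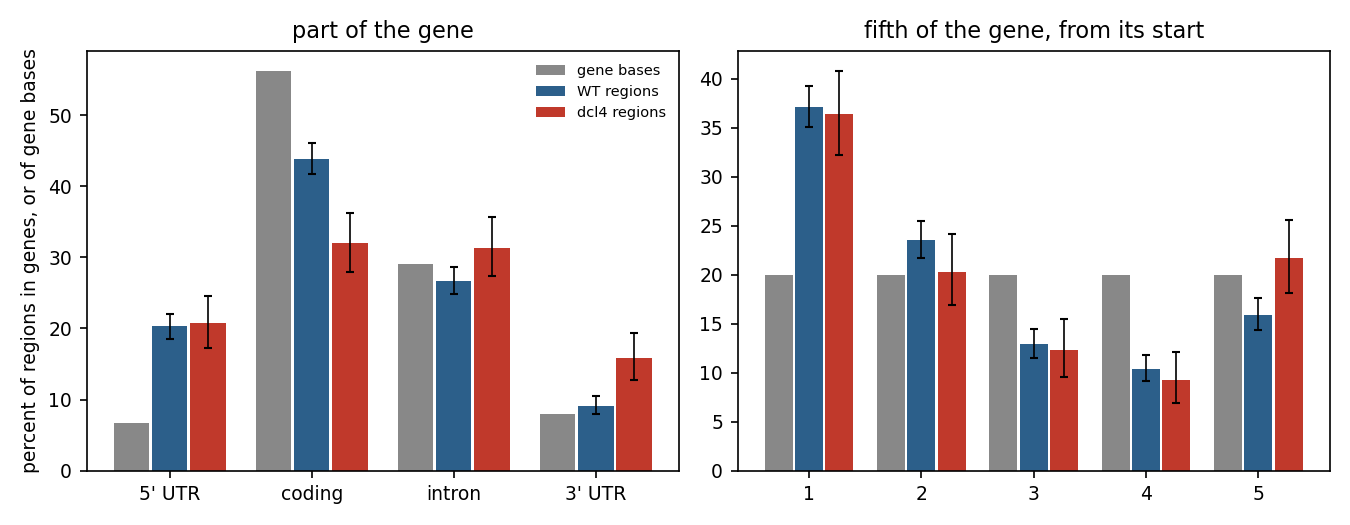
Percent of gene bases (grey), WT regions (blue) and *dcl4* regions (red) by part of the gene (left) and by 5 equal parts of the gene from its start (right), with 95% intervals. The 5' UTR bars of both lists (20.7% in *dcl4*, 20.3% in WT) lie above the gene bases (6.77%), and the coding bar is lower in *dcl4* (31.99%) than in WT (43.9%).

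A region overlapped 533 of the 27206 protein-coding genes (1.96%). Of the genes, 476 held the midpoint of a region, and 11 held 2 or more separate loci. These 11 included AT1G76780 with 5, AT3G28770, which codes for a putative transmembrane protein, with 3 (values of 3.602 to 5.91), and 3 genes laid over satellite (AT2G08986, AT1G40104 and AT2G07981). *CID3* (AT1G54170), a gene for a protein with a CTC-interacting domain, had 2 loci, with values of 8.004 in an intron and 4.33 on the side of the 5' UTR, and neither overlapped a region of another list. *FATB* (AT1G08510), which codes for a fatty acyl-ACP thioesterase of lipid synthesis, had 2 loci on the side of the 5' UTR, with values of 5.08 and 3.61.

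Genes of photolesion repair, UV response, DNA methylation and small RNA pathways were looked up by a list of 36. A region within the gene or 1 kb of it was found for 2 (5.56%), against 3.83% of all 27206 protein-coding genes. *DDB1A*, a partner of DDB2 in damage recognition, had a region with a value of 4.83 on the side of its 3' UTR (chr4:2752838-2752914), where WT had none. *AGO4*, an ARGONAUTE of RNA-directed DNA methylation, had 1 with a value of 3.70 in the coding sequence of the neighbouring gene (chr2:11535649-11535753). WT had no region at that place, but 1 with a value of 3.96 elsewhere in or within 1 kb of *AGO4*. In WT, 11 of the 36 genes (30.6%) had a region, against 13% of all genes. Among these, *COP1* and *AGO6* are neighbouring genes with the same WT value of 3.39, so they do not count as independent.

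The TE family with the most regions was ATREP18. Of the 302 TE regions, 297 lay in a named element, of 83 of the 320 families of the annotation. This family, with telomere-type repeats in many of its elements, had 76 (25.2%, 20.4 to 30.5), or 238 per Mb of the family, against 12.3 per Mb over all TEs. In WT it had 80 regions, or 12.9% (10.3 to 15.8) of the TE regions. Its *dcl4* regions had a median of 6.12 and values from 4.16 to 23.5, 67 were telomere-type, 74 lay in the pericentromere and 61 were shared with WT. Of the 391 ATREP18 elements 55 (14.1%, 10.8 to 17.9) overlapped a region, as 60 (15.3%, 11.9 to 19.3) did in WT, against 1.07% of all 31189 named TEs in *dcl4*. Elements with at least 14 bases of the telomere unit were more often hit (46 of 248, 18.5%, 13.9 to 24.0) than those without (9 of 143, 6.29%, 2.92 to 11.6), but they were also longer, with medians of 893.5 and 114 bp.

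The other families had far fewer regions, though some small ones were as dense. ATDNAI27T9C had 241 per Mb (97.1 to 497), VANDALNX2 262 per Mb from 4 regions (71.5 to 672) and LIMPET1 191 per Mb (76.8 to 394). ATREP10D, a Helitron family, had 11 regions on 0.983 Mb, VANDAL17, of the MuDR-like DNA transposons, 10 on 0.111 Mb, and ATENSPM9, of the CACTA transposons, 8 on 0.118 Mb. ATDNAI27T9C, ATHILA2 and LIMPET1 had 7 each. ATDNAI27T9C and LIMPET1 are short elements in which 6 and 5 of the regions held a CT tract, and their highest values were 12.2 and 11.6. ATHILA2, of the Gypsy-type retrotransposons, had its 7 regions on 1.07 Mb, all pericentromeric, with a highest value of 10.5.

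By name group the make-up of the TE regions differed between the lists. HELITRON-named elements had 35 regions (11.6%, 8.21 to 15.7) in *dcl4* against 3.70% (2.36 to 5.50) of the WT TE regions. ATREP elements other than ATREP18 also had 35, against 4.18% (2.75 to 6.07) in WT. VANDAL and ATMU elements had 35 as well, but against 20.4% (17.3 to 23.8) in WT, and ATHILA elements had 32 (10.6%, 7.36 to 14.6) against 21.1% (17.9 to 24.5). Shares of 1 list sum to 100%, so a larger share of some groups lowers the others. Copia elements had 3 regions and LINEs 3.

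**Figure D5:**
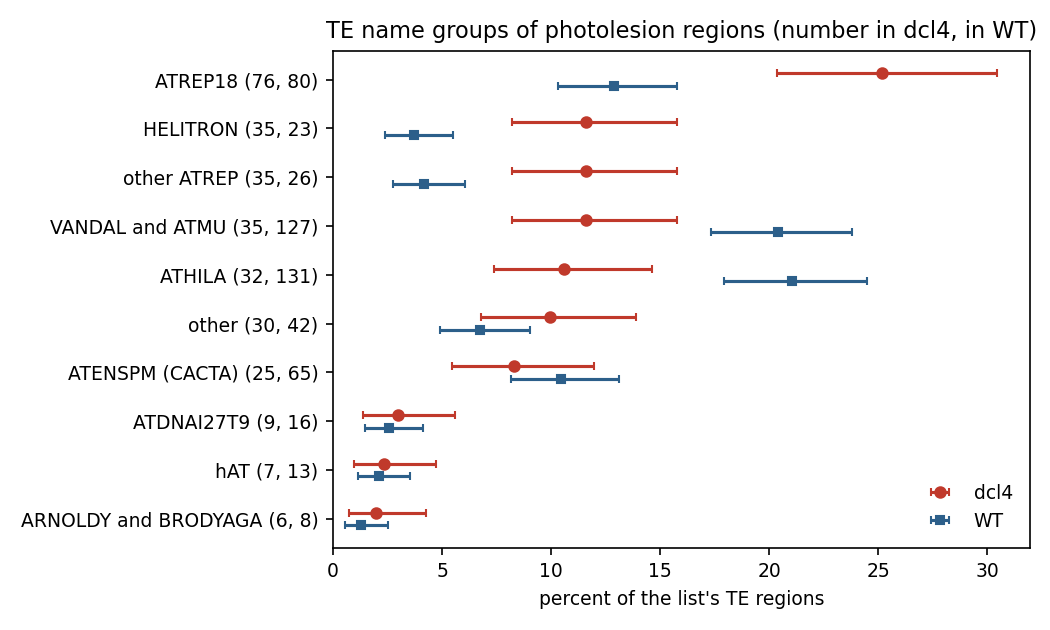
Percent of the TE regions of each list that lay in elements of a name group, for *dcl4* (red circles) and WT (blue squares), with 95% intervals and the number of regions in brackets. ATREP18, HELITRON and other ATREP elements have larger shares in *dcl4* (25.2%, 11.6% and 11.6%) and VANDAL and ATHILA elements smaller ones (11.6% and 10.6%).

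The regions in HELITRON and other ATREP elements were of a different kind from those in ATREP18. They were short (33 of 35 and 32 of 35 below 236 bp), had a median GC content of 20.5% and 20.7%, and only 3 and 5 of them were shared with WT. Their highest values were 7.21 and 7.33. In ATREP18 the median GC content was 35.1%, and in ATHILA elements 35.6%, with 19 of 32 regions shared with WT. Over the whole list, 200 regions (15.9%, 13.9 to 18.0) had a GC content below 25%, against 1.70% (1.30 to 2.18) of WT regions and 7.15% of the genome tiles. Of these 200 regions, 183 were shorter than 236 bp and 41 were shared with WT, 81 lay in TEs, 87 in intergenic sequence and 32 in PCGs. Most AT-rich regions thus belonged to the shorter class. The median GC content was 29.3% for regions shorter than 236 bp and 36.03% for longer ones, and 35.8% in WT, whose shortest region has 192 bp. Since the list names no antibody and WT has no region as short as most of these, the parts of the antibody, the library and the genotype in the AT-rich regions cannot be told apart.

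Of the 1260 *dcl4* regions, 614 (48.7%, 45.9 to 51.5) were covered by WT regions over at least 50% of their length, and 447 of the 3585 WT regions (12.5%, 11.4 to 13.6) were so covered by *dcl4* regions. For scale, WT regions cover 0.794% of the genome and *dcl4* regions 0.209%. The lists share the WT input, and the overlap is given as a description. The share was 85.7% (75.3 to 92.9) among the 70 regions with a value of at least 8, and 41.5% (37.1 to 46.0) among the 482 with a value from 4 to below 5. Shared regions had a median of 5.12 (5.004 to 5.19) and the others 4.79 (4.67 to 4.83), and 29 of the 30 regions with a value of at least 10 were shared. By type, 85 of 96 satellite regions (88.5%, 80.4 to 94.1), 58 of 73 telomere-type regions (79.5%, 68.4 to 88.0), 13 of 16 CA-tract regions and 16 of 29 CT-tract regions (55.2%, 35.7 to 73.6) were shared, against 409 of 984 regions without such sequence (41.6%, 38.5 to 44.7). In the pericentromere 73.0% (64.9 to 80.2) of intergenic and 61.7% (54.6 to 68.4) of TE regions were shared, and on the arms 40.3% and 36.6%. Among PCG regions of the arms the share was 43.0% (38.4 to 47.7). Length moved with the overlap, since 35.4% (31.8 to 39.2) of regions shorter than 236 bp and 63.8% (59.8 to 67.7) of the longer ones were shared.

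The highest region without any WT overlap had a value of 10.8 and lay in intergenic sequence 308 bp upstream of AT1G18370, a gene for a microtubule motor of the kinesin type (chr1:6324460-6324600). Its value was 6.91 in *uvr3 phrI* and 5.23 in *ddb2*. The next were AT5TE39605, an element of the family ATDNA2T9C (8.77, chr5:10899539-10899664), a region 212 bp upstream of the pseudouridine synthase gene AT5G51140 (8.67, chr5:20786971-20787085), a region 944 bp upstream of the transporter gene AT2G38100 (8.39, chr2:15951128-15951217) and a CT tract at chr3:11486175-11486265 (8.36). All 5 were short, between 90 and 141 bp. Only the region upstream of AT2G38100 overlapped no region of any other list, while the CT tract had a value of 14.2 in *uvr3 phrI*.

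Di-pyrimidine steps, where these lesions can form, were counted on both strands. They made up 28.5% of the dinucleotides of the *dcl4* regions against 27.3% in the genome, a ratio of 1.05, and 28.7% in WT. By class the *dcl4* ratio was 1.06 in TEs, 1.04 in PCGs and 1.05 in intergenic sequence. Among regions without satellite, telomere-type repeat or tract it was 1.018 in TEs, 1.049 in PCGs and 1.064 in intergenic sequence. Of the 4 steps, TT made up 12.7% against 11.5% in the genome (ratio 1.102) and CT 6.39% against 5.93% (1.08), while TC (6.21%, ratio 0.972) and CC (3.18%, ratio 0.942) were slightly below the genome. In WT all 4 steps were above it, with ratios from 1.031 to 1.101. For *dcl4* regions without such repeats or tracts the ratios were 1.145 (TT), 1.025 (CT), 0.988 (TC) and 0.863 (CC). Fold enrichment did not follow the di-pyrimidine content through its range. The median was between 4.70 and 4.92 in each bin below 35% and was 6.10 for the 53 regions with at least 35%, of which 19 held a CT tract. The 20 regions with less than 20% had a median of 4.81.

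The *dcl4* methylome of the same series gave differentially methylated regions (DMRs) between time point 0 and 24h after UV-C, from 1 bisulfite library each, of which 6351 gained (hyper-DMRs) and 329 lost methylation (hypo-DMRs). Of the 1260 photolesion regions, 33 (2.62%, 1.81 to 3.66) were covered by a hyper-DMR over at least 50% of their length, where hyper-DMRs cover 1.52% of the genome, and 4 (0.317%) by a hypo-DMR, where these cover 0.0639%. Nearly all were in the CHH context (37 of 38 pairs of region and DMR), in which neither of the next bases after the cytosine is a G. Of these 37 regions 26 lay in TEs and 26 in the pericentromere, 8 were telomere-type and none was satellite. Among pericentromeric TE regions 19 of 201 (9.45%, 5.79 to 14.4) had a hyper-DMR, where hyper-DMRs cover 4.36% of those bases. In TEs of the arms it was 5 of 101 (4.95%, 1.63 to 11.2) against 5.74% of the bases, and in intergenic sequence of the pericentromere 3 of 141 (2.13%, 0.441 to 6.09) against 4.71%. Overlapping regions are counted one by one in these shares, and the intervals do not allow for it. The pericentromeric elements AT4TE19110, AT1TE42080, AT3TE52120 and AT1TE49665 each entered with a short and a long region under the same hyper-DMR. AT1TE41230 on the arm did so too, as did AT1TE49675 under a hypo-DMR.

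The largest change was at AT4TE19110, the CT-tract element printed above, where CHH methylation was 19.6% at time point 0 and 56.2% at 24h, a gain of 36.5 points. Next to AT1G47900, in intergenic sequence (chr1:17655825-17656020, fold enrichment 3.90), it was 2.54% and 38.9%, a gain of 36.4 points. The LIMPET1 element AT1TE42080, also a CT-tract locus with values of 7.53 and 6.08, had 33.5% and 62.5%. The ATREP18 element AT1TE49715 had 18.1% and 46.2%, and the ATREP8 element AT4TE34695 had 25.2% and 52.5%. Among the hypo-DMRs the largest loss was in intergenic sequence at chr2:4337895-4338130, from 44.9% to 20.1%. The DMR lists hold only changes past the authors' threshold, and the number of reads behind a level was not given in them.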

How the data were processed

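The data were lists of photolesion regions from immunoprecipitated damaged DNA of leaves. The deposited fold enrichment is a ratio, which the authors obtained with MACS2 2.1 against the WT input from reads with a single place on TAIR10 (Bowtie 1.1.2). The deposited DMR levels are scores between 0 and 1 that the authors computed from BSMAP alignments, and they are given as percent. Genes and TEs were those of the authors' small RNA tables, whose 60 value columns match no sample and were not used here. Gene parts and sequences came from RefSeq TAIR10.1.

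Regions were classed by their midpoint, TEs before genes. Bins of 100 kb were pericentromeric in the longest stretch where gene coverage, averaged over 1 Mb, stayed below 50% of the chromosome's median. Shares, densities and medians were computed with Python 3.11.15, numpy 2.4.6, pandas and scipy 1.17.1, and the functions were tested on simulated data. Depth per region is unknown. Members, lists and definitions were chosen with earlier results of these data known. Named loci were the highest regions of the list, by class, by chromosome and by WT overlap, the largest clusters and families, the largest methylation changes and the listed genes with a region. The DMR lists of the other genotypes were left out, as was the joint overlap of the 5 photolesion lists, which share 1 input. Alternatives covered the class, zone, overlap, cluster, fold and DMR rules.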

Additional observations from a re-analysis of the deposited data

How the results depend on the processing

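No paired analysis was possible because each list is 1 pooled library per antibody. Of 67 alternative values 28 lay inside the 95% interval of the reported value and 39 outside. TE, PCG and intergenic shares stayed inside when genes came before TEs, by most bases and with overlaps merged. At a fold enrichment of at least 5 TEs had 28.98% and PCGs 35.5%, and at 7 the 3 classes had 39.5%, 21.01% and 39.5%. Alternatives chosen after seeing the data left out satellite and telomere-type regions (TE 20.99%, PCG 43.9%, pericentromere 20.5%, WT overlap 43.2%) or regions shorter than 236 bp (TE 20.8%, PCG 46.0%, intergenic 33.2%, WT overlap 63.8%). The pericentromere had 25.8% in a stricter zone, 38.7% within 3 Mb on each side and 27.8% with overlaps merged. The WT overlap was 51.7% at 1 bp, 31.3% at 50% of both regions, 55.6% for *dcl4* values of at least 5 and 40.0% with both lists at 5. With overlaps merged, also chosen after seeing the data, satellite made up 5.60% and regions without tract or satellite 81.7%. Clustered loci were 21.4% with a 5-kb gap and 26.1% without merging. Mean fold enrichment was 5.71 (TE), 5.08 (PCG), 5.27 (intergenic), 5.18 (arms) and 5.56 (pericentromere). Without tracts and satellite the median was 4.88 in TEs and 4.83 in the pericentromere. Di-pyrimidines on the plus and minus strands were 28.0% and 29.04% in all regions, 28.1% and 29.4% in TEs and 28.0% and 29.5% in PCGs. Hyper-DMRs touched 4.29% of regions by at least 1 bp. Widened by 200 bp on each side, they covered at least 50% of the length of 5.79% of regions. The cause of these moves was not tested beyond what each rule removes by construction.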
